A study of Mus musculus with 8 samples.

Results

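Brush-border genes were examined in primary colonic intestinal epithelial cells (IECs) of mice lacking Efhd2 in the intestinal epithelium. The 5 genes comprised the 3 membrane peptidases Anpep, Enpep and Mme and the 2 nutrient transporters Slc6a19 and Slc2a5. They were found by gene name in the day 0 table, which held 309 genes. They were selected on their measured values: the table holds only genes past the study's thresholds of fold change and adjusted p between genotypes on day 0, and the 5 were chosen for being lower in the Efhd2-deficient libraries. Their levels and differences on day 0 are therefore given as a description, without a test.

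IECs came from the colons of Efhd2f/f Vil1cre/+ mice (labelled Efhd2-deficient) and Efhd2f/f mice (labelled Wildtype), either without DSS (day 0) or on day 7 after dextran sulfate sodium (DSS), an agent in drinking water that injures the colonic epithelium. Each of the 4 groups had 2 libraries, 8 in all, sequenced as bulk RNA. By the study's methods, mice of both sexes aged 8 to 10 weeks were used. DSS was given at 2.5% or 3% for 6 days and plain water followed until day 7. The study's figure legends give 2.5% for colitis in these genotypes, and no dose was stated for the sequenced mice. Both genotypes carried the floxed Efhd2 allele with loxP sites at exon 2, and Cre was driven by the villin gene Vil1, so deletion was aimed at the intestinal epithelium. The control genotype names no Cre. IECs were released from whole colon with DTT and EDTA and were not sorted, so cells of other types and of all colon segments could be present. Neither the number of mice per library nor the segment was given in the sources used here. The tables list neither Epcam nor Krt8, general epithelial markers, so the cell type label was not checked against them here.

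The brush border is the layer of microvilli on the apical face of absorptive enterocytes, where membrane peptidases finish the digestion of peptides and transporters take up the products. These functions are known mainly from the small intestine, and the colon carries less of them. Anpep (aminopeptidase N) removes neutral residues from the amino terminus of peptides, Enpep (aminopeptidase A) removes acidic residues and cleaves angiotensin II, and Mme (neprilysin) is an endopeptidase that degrades many small peptides. Slc6a19 is the main sodium-coupled carrier of neutral amino acids in the brush border, and Slc2a5 is the fructose transporter.

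All 5 genes were annotated as in GENCODE M21 (GRCm38), with the same coordinates and the same summed exon lengths. Anpep (ENSMUSG00000039062) spans chr7:79821803-79861059 on the minus strand. Enpep (ENSMUSG00000028024) spans chr3:129269175-129332720 on the minus strand, and Mme (ENSMUSG00000027820) lies on the plus strand of the same chromosome at chr3:63241537-63386030. Slc6a19 (ENSMUSG00000021565) spans chr13:73679745-73704865 on the minus strand. Slc2a5 (ENSMUSG00000028976) spans chr4:150119283-150144169 on the plus strand, 8.24 Mb from Efhd2 on the same chromosome. The members were thus spread over 4 chromosomes, and only Slc2a5 shared one with the deleted gene.

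The longest coding transcripts encode 966 residues for Anpep, 945 for Enpep, 750 for Mme, 634 for Slc6a19 and 501 for Slc2a5. The zinc-binding motif HEXXH of metallopeptidases was found in all 3 peptidases, starting at residue 387 of Anpep, 385 of Enpep and 584 of Mme, and in neither transporter. Anpep and Enpep belong to the same aminopeptidase family, and 325 of 904 aligned residues (36.0%) were identical. The other pairs of members had 22.3% to 32.8% identity over shorter alignments of 58 to 603 residues. The percentage alone therefore does not show kinship. No exon of the 5 genes overlapped an exon of another gene on either strand. No transcript of Anpep, Enpep, Slc6a19 or Slc2a5 shared a stretch of at least 95% identity with another gene. Mme transcripts shared such stretches with 34 other genes, the longest being 195 bases shared with H2-Q4.

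Upstream sequences are shown for the 4 genes that were low in every Efhd2-deficient library without resting on a single control library. They come from the RefSeq promoter table (GRCm38.p6), in which all 5 members were matched. Shown is the longest run without annotated exon bases among the 250 bases before the RefSeq start. For Slc2a5 this run ends at base 150119235, short of the RefSeq start at 150119344. The windows printed are chr7:79848211-79848460 (minus strand) for Anpep, chr3:129332750-129332999 (minus strand) for Enpep, chr13:73692637-73692886 (minus strand) for Slc6a19 and chr4:150119094-150119235 (plus strand) for Slc2a5. Capitals mark a match to one of the motifs searched.
Anpep: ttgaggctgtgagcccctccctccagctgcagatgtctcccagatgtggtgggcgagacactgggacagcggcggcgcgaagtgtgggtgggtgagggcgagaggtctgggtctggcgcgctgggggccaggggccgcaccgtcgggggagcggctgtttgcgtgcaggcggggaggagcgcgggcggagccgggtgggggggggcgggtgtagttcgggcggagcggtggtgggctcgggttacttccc
Enpep: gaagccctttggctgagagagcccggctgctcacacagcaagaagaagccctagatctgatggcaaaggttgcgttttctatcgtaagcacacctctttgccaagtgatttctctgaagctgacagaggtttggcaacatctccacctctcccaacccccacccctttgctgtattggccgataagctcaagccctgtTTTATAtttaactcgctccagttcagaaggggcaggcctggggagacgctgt
Slc6a19: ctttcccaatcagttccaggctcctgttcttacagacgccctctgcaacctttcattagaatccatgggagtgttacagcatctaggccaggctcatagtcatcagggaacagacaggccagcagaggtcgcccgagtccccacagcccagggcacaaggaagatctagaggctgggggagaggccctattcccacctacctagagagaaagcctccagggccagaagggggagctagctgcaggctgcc
Slc2a5: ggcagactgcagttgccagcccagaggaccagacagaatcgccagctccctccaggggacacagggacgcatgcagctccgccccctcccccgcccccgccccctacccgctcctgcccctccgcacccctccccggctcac

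Motifs were searched on both strands in the 250 bases before the start. The half-site of HNF1 factors was searched as GTTAAT and was found in 6.43% of all 32851 RefSeq promoter windows. The core of HNF4 sites, CAAAGTC, was found in 3.84%. The letters AGATAA, bound by GATA factors, were found in 9.99%, and TTTATGG, bound by CDX factors, in 2.43%. The TATA box, searched as TATAAA, was found in 12.4%. The single match among the members was TATAAA in Enpep, on the strand opposite to the gene, from base -52 to base -47 before the RefSeq start. No match means only that these letters were not in these windows. The G and C content of the printed bases was 72.8% for Anpep, 73.2% for Slc2a5, 57.6% for Slc6a19 and 52.4% for Enpep. Other starts are annotated. In Anpep coding transcripts also start at other bases than the RefSeq start of 79848210, among them 79861059 and 79842352. In Slc6a19 the transcript with the longest coding sequence starts at 73700780, so the printed window lies downstream of that start, inside the gene. The Slc6a19 transcript at the RefSeq start of 73692636 is annotated as noncoding. The Anpep window also lies within the annotated span of its gene. Which starts are used in the colon was not tested, so these windows may not be the promoters in use.

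Values below are the study's normalized read counts. KO stands for Efhd2f/f Vil1cre/+ and WT for Efhd2f/f. Libraries are named by the number in their column, 51 and 53 for KO and 50 and 52 for WT on day 0. Means are given ± SD with n = 2 libraries per group. Differences are KO minus WT means of log2(normalized count + 1) with the standard error (s.e.) from the spread of the 4 libraries, a scale that understates the change of low genes. The targeted gene followed the labels: Efhd2 measured 556 and 713 in the KO libraries against 2663 and 2686 in the WT libraries, a log2 difference of -2.09 (s.e. 0.18).

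All 5 brush-border genes were lower in both KO libraries than in both WT libraries on day 0. This separation held for 67% of the 309 listed genes, and since the table was filtered on the same difference nothing is read from it. The median log2 difference of the 5 genes was -2.74, beside -1.17 over all listed genes and -1.50 over the 210 listed genes that were lower in KO. Without Mme the median was -2.29. In bulk RNA, fewer cells of a type and less RNA per cell cannot be told apart.

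**Figure D1:**
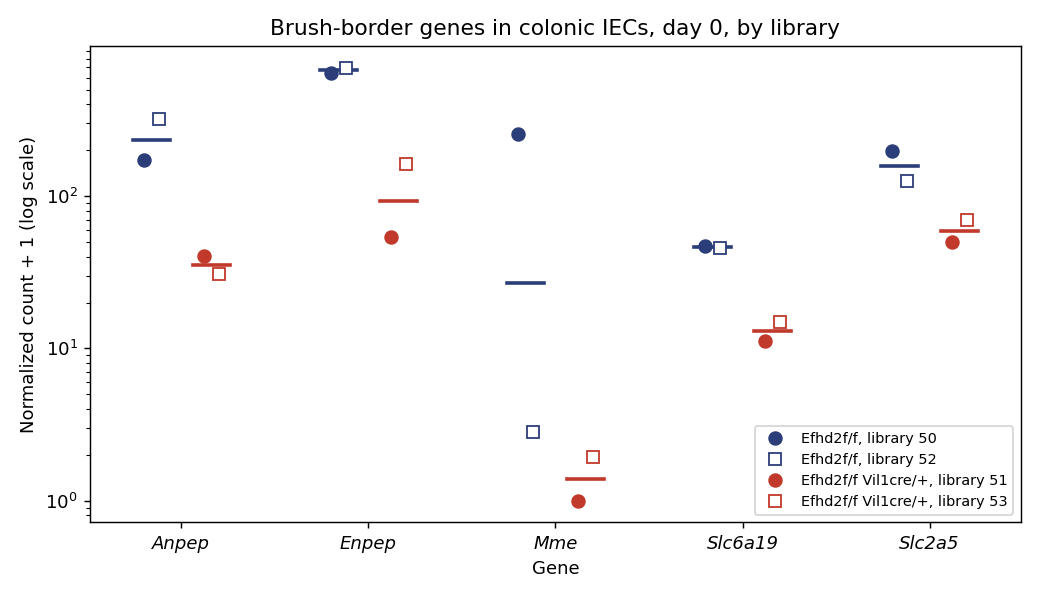
Normalized counts plus 1 (log scale) of the 5 brush-border genes on day 0 in the 2 Efhd2f/f libraries (blue) and the 2 Efhd2f/f Vil1cre/+ libraries (red), with bars at the mean of the log values. Both red points lie below both blue points for each gene, and for Mme one blue point (255 normalized counts, library 50) stands far above the other 3 libraries.

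Among the peptidases, Enpep had the highest counts. It measured 645 and 697 in the WT libraries and 52.8 and 161 in the KO libraries. The WT libraries were close to each other, whereas the KO libraries were 3.05-fold apart, the gap of rank 15 among the 309 listed genes. The mean was 107 ± 76.5 in KO against 671 ± 36.8 in WT, so KO held 15.9% of the WT mean. The log2 difference was -2.85 (s.e. 0.80). For single pairs of libraries the KO level was 7.58% to 25.0% of the WT level, so even the higher KO library stayed well under the lower WT library.

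Anpep, the second aminopeptidase, stood at a similar share of its control level. The WT libraries measured 172 and 318 and the KO libraries 39.5 and 29.6. Here the spread lay mainly in the WT libraries, which were 1.84-fold apart with library 52 the higher. Means were 34.5 ± 7.03 in KO and 245 ± 103 in WT, and KO held 14.1% of WT. The log2 difference was -2.74 (s.e. 0.48), and pairs of libraries ranged from 9.31% to 22.9%.

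Mme rested on 1 library. It measured 255 in WT library 50 but only 1.83 in WT library 52, and 0.00162 and 0.937 in KO libraries 51 and 53. WT library 52 was thus close to the KO libraries, although still above them. The gap between the WT libraries, 6.50 on the log2 scale, was the widest of all 309 listed genes, for which the median gap was 0.53. The log2 difference of -4.27 had an s.e. of 3.28. Without library 50 it was -1.02, from libraries that all lay under 2 normalized counts, and without library 52 it was -7.52. The difference in Mme therefore rested on library 50, and medians over the genes are given with and without Mme.

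The transporters had smaller log2 differences between genotypes than the aminopeptidases. For Slc6a19 this order was not settled, since its lowest pair of libraries (22.0%) lay under the highest of Anpep (22.9%) and Enpep (25.0%). For Slc2a5 it was not settled against Enpep, since the lowest pair of Slc2a5 (24.6%) lay under the highest of Enpep (25.0%). Slc6a19 was low in every library but was the steadiest of the 5 genes: it measured 46.1 and 44.5 in WT and 10.1 and 14.0 in KO. Its means were 12.1 ± 2.69 in KO and 45.3 ± 1.08 in WT. KO held 26.6% of WT, with pairs of libraries from 22.0% to 31.3%. The log2 difference was -1.84 with an s.e. of 0.21, the smallest of the 5.

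Over all libraries Slc2a5 showed the smallest log2 difference of the 5 genes, but this place was not settled. Its pairs of libraries (24.6% to 55.4%) overlapped those of Slc6a19 (22.0% to 31.3%). Without library 50 the difference of Mme (-1.02) was smaller than that of Slc2a5 (-1.09). It measured 198 and 124 in WT and 48.7 and 68.8 in KO. The lower WT library (52) and the higher KO library (53) did not overlap, and for that pair KO held 55.4% of WT. Means were 58.7 ± 14.2 in KO and 161 ± 52.3 in WT, a KO level of 36.5% of WT. The log2 difference was -1.42 (s.e. 0.42).

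**Figure D2:**
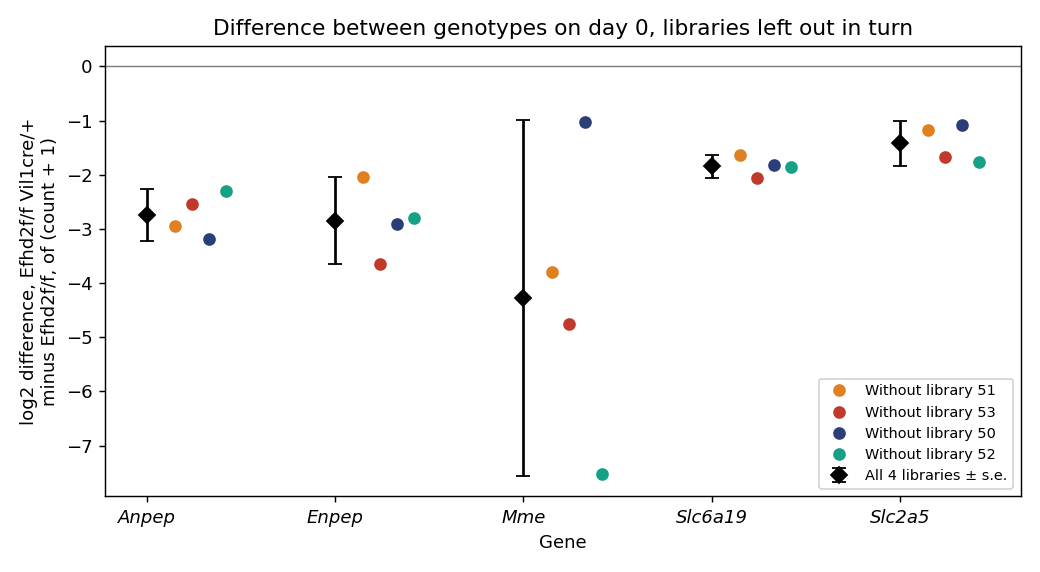
Log2 differences (Efhd2f/f Vil1cre/+ minus Efhd2f/f, of normalized count plus 1) of the 5 genes on day 0 from all 4 libraries (diamonds, bars ± s.e.) and with each library left out in turn (circles). Every value lies below 0, which is fixed once both Efhd2f/f Vil1cre/+ libraries lie below both Efhd2f/f libraries. Mme moves from -1.02 without library 50 to -7.52 without library 52.

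The 5 genes did not share the same higher library within a genotype, though 2 libraries cannot show whether genes vary together. Library 52 was the higher WT library for Anpep and Enpep, and library 50 was the higher for Mme, Slc6a19 and Slc2a5. The WT gaps of Enpep (-0.11) and Slc6a19 (0.05, log2, library 50 minus 52) were small. Among the KO libraries, 53 was the higher for Enpep, Mme, Slc6a19 and Slc2a5, and 51 was the higher for Anpep. Leaving out single libraries moved the log2 difference of Enpep from -3.64 to -2.05, of Anpep from -3.18 to -2.30, of Slc6a19 from -2.05 to -1.63 and of Slc2a5 from -1.76 to -1.09.

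Levels of different genes were compared per kilobase of summed exon length. In WT the mean normalized count per kilobase was 143 for Enpep, 59.2 for Anpep, 47.3 for Slc2a5, 11.1 for Mme and 9.05 for Slc6a19. The libraries of Anpep and Slc2a5 overlapped on this scale, as did those of Mme and Slc6a19, so their order was not settled. In KO the mean count per kilobase was 22.7 for Enpep, 17.3 for Slc2a5, 8.35 for Anpep, 2.41 for Slc6a19 and 0.0407 for Mme. Only Enpep and Slc2a5 overlapped in KO. Slc2a5 stood above Anpep per kilobase in both KO libraries and in WT library 50 (58.2 against 41.7), and below it in WT library 52 (36.5 against 76.8).

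**Figure D3:**
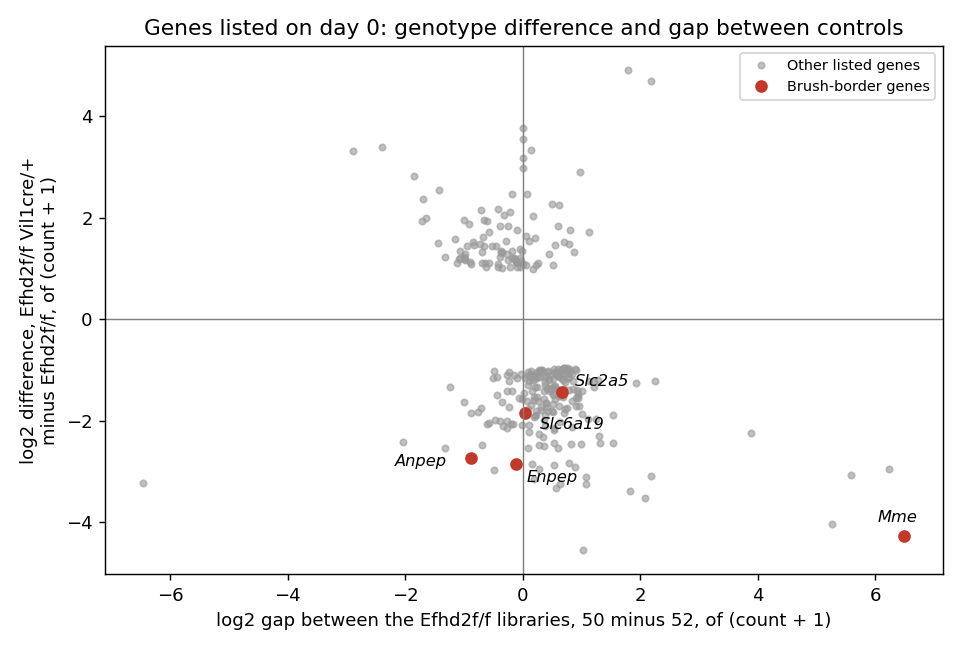
Genotype difference (log2, Efhd2f/f Vil1cre/+ minus Efhd2f/f) against the gap between the Efhd2f/f libraries (log2, library 50 minus 52) for the 309 genes listed on day 0, with the 5 brush-border genes in red. Mme lies at a gap of 6.50, while Anpep, Enpep, Slc6a19 and Slc2a5 lie within 1 log2 unit of a gap of 0.

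The genes whose profile over the 4 day 0 libraries was most like the mean profile of the 5 members were sought among the 149 day 0 genes whose mean reached 100. Likeness was the distance between centred log2 values, with smaller values for closer profiles. This distance includes the genotype difference on which members and candidates were both selected, so nothing further is read from nearness. The nearest genes were Ankrd37 (0.79), the gut peptide gene Nts, or neurotensin (0.85), the Fc receptor chain gene Fcer1g (0.96), Efhd2 (1.06) and the chemokine gene Xcl1 (1.06). The mean profile carried the single high value of Mme, whose own distance to it was 4.07, against 1.16 to 1.67 for the other 4 members. Without Mme, an alternative chosen after its values were seen, the nearest gene was Efhd2 itself (0.18). It was followed by Nos2, the inducible nitric oxide synthase (0.45), Cyp2d12 (0.50), Fcer1g (0.55) and Tat, tyrosine aminotransferase (0.58).

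Other absorptive genes were counted from 7 lists of brush-border enzymes, transporters, structural genes and lipid absorption genes. The lists held 98 symbols, 96 of them in GENCODE M21, including the 5 members. Of the 93 other symbols, 5 were listed on day 0, and all 5 were lower in both KO libraries, beside the same 67% of listed genes. The remaining 88 were not listed on day 0 and have no value here. They include 11 of the 14 brush-border peptidases, among them Dpp4, Mep1a and Mep1b, and all 8 brush-border glycosidases and phosphatases. All 14 structural and chaperone symbols were also not listed. A separate list of 16 enterocyte transcription factors, outside the 98 symbols, had no listed gene either.

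Of the 5 listed genes, 4 handle lipids. Apoa1, the main protein of high-density lipoprotein, measured 8.11 and 6.46 in KO against 35.2 and 57.3 in WT, a log2 difference of -2.48 (s.e. 0.37). Abcg5 and Abcg8 encode the partners of the sterol exporter of the apical membrane. Abcg5 measured 21.3 and 23.2 in KO against 86.3 and 73.9 in WT (log2 -1.80, s.e. 0.12), and Abcg8 13.2 and 20.5 against 69.6 and 60.9 (log2 -1.92, s.e. 0.31). Npc1l1, which takes up cholesterol, measured 7.09 and 6.48 against 19.5 and 36.7 (log2 -1.84, s.e. 0.44). All 4 had fewer normalized counts than Anpep and Enpep, without regard to gene length. Apoa1 (1236 bases) and Abcg5 (2712 bases) are shorter than Anpep (4135 bases), so this is not an order per kilobase. The fifth gene, the dicarboxylate carrier Slc13a2, was far more abundant, with 2700 and 4199 in KO against 9065 and 6937 in WT (log2 -1.24, s.e. 0.37).

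Regional and cell type markers also differed between the day 0 groups, and their part in the levels of the brush-border genes was not tested. Of 16 distal colon genes, 4 were listed. The hindgut homeobox genes Hoxa13 and Hoxb13 and the water channel gene Aqp4 were higher in both KO libraries, as were 32% of the listed genes. Hoxb13 measured 538 and 497 in KO against 134 and 243 in WT, and Hoxa13 385 and 358 against 150 and 201. Aqp4 measured 8572 and 8925 against 3684 and 4935. Aqp8, a water channel gene of colonic absorptive cells, went the other way, with 2213 and 3293 in KO against 5138 and 6943 in WT. The distal list was therefore not uniform: 3 genes were higher, 1 was lower and 12 were not listed.

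Markers of other cells in the IEC fraction were mostly lower in KO where they were listed. Of 12 T and NK cell markers, 6 were listed and all were lower in both KO libraries, as were 67% of the listed genes, with counts summed over those listed of 1077 to 1277 in KO and 1991 to 3250 in WT. Of 10 enteroendocrine markers, 4 (Nts, Chga, Chgb and Pyy) were listed and lower in both KO libraries, beside the same 67%, with sums of 4645 to 5796 against 9799 to 13054. Dcn and Pecam1, from 13 stromal and endothelial markers, summed to 69.0 to 110 against 212 to 252, and Ighd, the only one of 10 B and plasma cell markers listed, had 11.1 and 9.24 against 78.5 and 51.3. The defining markers Cd3e, Cd79a and Col1a1 were not listed and have no value here. None of 11 myeloid, 7 goblet or 8 stem and proliferating cell markers was listed on day 0.

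Paneth cells, which sit in small intestinal crypts, were represented by 3 of 10 markers. Lyz1 had 6.07 and 2.73 in KO against 12.6 and 54.8 in WT, and Defa24 was at 0 in every library except WT library 52, with 86.9. Mptx2 was higher in KO, with 4653 and 1117 against 711 and 870. The high Lyz1 and Defa24 values were in WT library 52, whereas the high Mme value was in WT library 50. Of 5 red blood cell markers Alas2 was listed, with 44.6 and 68.8 in KO against 25.5 and 14.3 in WT.

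**Figure D4:**
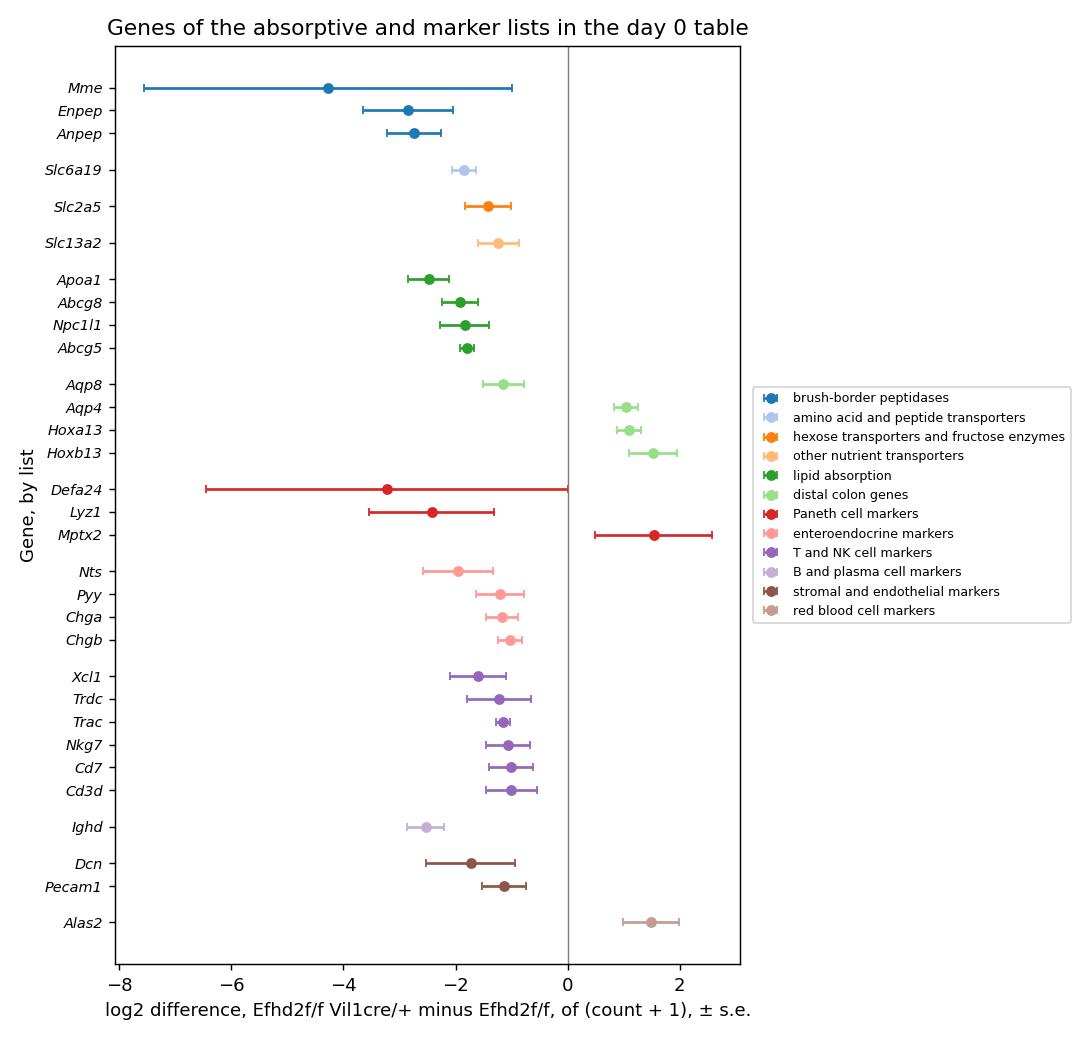
Log2 differences (Efhd2f/f Vil1cre/+ minus Efhd2f/f, of normalized count plus 1, bars ± s.e.) of every gene of the absorptive and marker lists that the day 0 table holds, coloured by list. The 10 absorptive genes lie below 0, Hoxa13, Hoxb13, Aqp4, Mptx2 and Alas2 lie above it, and Mme and Defa24 have the widest bars.

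On day 7 after DSS none of the 5 brush-border genes was among the 128 genes listed, so their levels in the injured colon have no value here and no difference between days was tested. A gene not listed had not passed the study's thresholds, which does not show equal levels. Of the 98 absorptive symbols, 2 were listed on day 7. Both were brush-border transporters and both were higher in both KO libraries, as were 90.6% of the genes listed on that day. Slc7a9, a subunit of the carrier of cystine and basic amino acids, measured 823 and 467 in KO libraries 65 and 71 against 66.3 and 148 in WT libraries 67 and 68, a log2 difference of 2.63 (s.e. 0.70). Slc5a9, a sodium-coupled carrier of mannose and glucose, measured 899 and 1038 against 298 and 315 (log2 1.65, s.e. 0.11). The distal colon gene Clca4b was higher as well, with 15510 and 12918 against 458 and 1055. On the same day the neutrophil genes S100a8 and S100a9, from 11 myeloid markers, summed to 14670 to 36647 in KO against 3163 to 4656 in WT, and their part in these levels was not tested. Of 5 red blood cell markers, 4 were higher in both KO libraries, with sums of 3992 to 4139 against 562 to 1344. Efhd2 was not listed on day 7, so its level could not be set against the labels of that day. No gene of the absorptive lists was listed on both days.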

How the data were processed

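RNA was extracted with TRIzol from colonic IECs of 8 samples, and libraries were made with the NEBNext Ultra RNA kit and sequenced on a NovaSeq instrument. The submitters' processing notes name CASAVA 1.8, fastp, HISAT2 2.0.5, featureCounts 1.5.0-p3 and DESeq2 1.20.0, with GRCm38/mm10. The authors deposited 1 table per day, with normalized counts per library (a signal, not whole reads) for the genes whose fold change exceeded 1 on the log2 scale, up or down, with an adjusted p under 0.05. The tables also hold the authors' fold changes and p-values, which were not used. The normalization was not stated in the sources used here. Whether the days were normalized together or apart is not known, so levels were not compared between days. At best 18.8% to 85.6% of the low values of a library (0.5 to 60) lay within 0.03 of a whole multiple of 1 step, so reads were not recovered and depth is unknown. Values under 1e-06 were read as 0.

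Levels, means and differences of log2(value + 1) were computed with Python 3.11.15, pandas 2.3.3 and numpy 2.4.6, checked on simulated data. No test was run, because the day 0 contrast had chosen the genes and the members and lists were chosen with earlier results of these data known. Named genes were the 5 members, each listed gene of the lists, Efhd2 and the 5 nearest profiles. Proteins were translated from GENCODE M21 and aligned with Biopython 1.88. Other pseudocounts, scalings, a minimum level and leaving out each library were tried.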

Additional observations from a re-analysis of the deposited data

How the results depend on the processing

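No paired analysis was possible because the columns carry library numbers rather than the replicate numbers of the labels, and the results come from no test. All 5 members stayed lower in both KO libraries under both other scalings. Changing the pseudocount or leaving out a library cannot undo this separation, so those settings say nothing about it. Nor can a minimum mean of 50, which drops Slc6a19 and which Mme passed only through WT library 50. The median log2 difference of the members was -2.74 as reported, -2.54 to -1.82 with single libraries left out, and -2.29 without Mme, an alternative chosen after seeing the data. Scaling to equal sums over the listed genes gave -3.34 and median-of-ratios factors over the listed genes gave -1.64. These scalings moved the median of all listed genes by -0.61 and 1.11, being computed on genes chosen for a difference. Relative to that shift the median was -2.73 and -2.75. This return was fixed in advance, since a scaling moves the log2 difference of every gene by nearly the same amount. Nothing is read from it. Under median-of-ratios factors Slc2a5 had a log2 difference of -0.32 and Slc6a19 of -0.77. Of the 5 other absorptive genes on day 0, all stayed lower in both KO libraries under equal sums. Under median-of-ratios factors 4 of 5 did, and Slc13a2 no longer separated the groups. A mean of at least 50 left 2 of them. A pseudocount of 10 took Slc6a19 to -1.33 and Mme to -2.42, and 0.1 took Mme to -6.10. No direction of a member turned under either scaling, and the other settings could not turn one. Depth is unknown, so counting error could not be set beside the low values of Slc6a19, Apoa1 and Npc1l1.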

Other observations

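Mme was 1 of 5 genes listed on day 0 whose WT libraries lay over 5 log2 units apart, a limit chosen after the values were seen. Library 50 was the higher for Mme and 3 others. The processed pseudogene Atp6v0c-ps2 measured 297 in library 50 and 2.96 in library 52, against 6.07 and 1.79 in KO. The gene Gm15446 measured 129 and 1.70, against 4.04 and 0 in KO, and the histone pseudogene Hist1h2al measured 101 and 1.64, against 0 in both KO libraries. Library 52 was the higher for Defa24, a Paneth cell defensin gene, which was at 0 in library 50 and in both KO libraries and at 86.9 in library 52. Over all listed genes the median absolute gap was 0.53 between the WT libraries and 0.32 between the KO libraries.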
